A study of Oryza sativa with 7 samples.

Results

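Chitinase genes of the Cht family were followed across rice caryopses that lacked a normal OsbZIP76 gene and their wild type. The members were the 7 rows named Cht1, Cht3, Cht7, Cht8, Cht9, Cht11 and Cht12 in the first column of the table, of 35825 rows in all. They were chosen by symbol with the mutant and WT values of these libraries already known, Cht7 having been called changed, so their differences between mutants and WT are given as a description, and nothing is read from whether a member passed the test across all genes in that contrast. The comparison between the alleles, in which WT values do not enter the difference, was tested. The table names 3 further rows Cht (Cht5, Cht6 and Cht10), which are not members and are given below for comparison.

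Chitinases cut chitin, the polymer of fungal cell walls and insect cuticle that plants themselves do not make. Many are pathogenesis-related proteins whose genes are switched on by fungal elicitors and wounding, and cereal grains also lay down chitinases as they develop. In plants, class I enzymes carry a chitin-binding domain ahead of the catalytic domain, and class II enzymes lack it. The RefSeq gene table lists the members under further names that follow this scheme. The class I names OsChia1a, OsChia1c and OsChia1d stand for Cht1, Cht3 and Cht7, and the class II name OsChia2a stands for Cht8. Cht12 is listed there as RCH10, an elicitor-inducible chitinase gene that has been used in transgenic work on fungal resistance. In the same table Cht1 and Cht3 are immediate neighbours on a chromosome, and so are Cht7 and Cht9. The table also gives Cht1 as a further name of the Cht9 gene, but the row named Cht9 was separate in these data and had a different gene model length.

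The libraries were made from poly(A) RNA of caryopses of rice, Oryza sativa cultivar Kitaake, grown in paddy fields in summer and collected 2 days after fertilization. The mutant groups were osbzip76-1 (2 libraries, replicates 1 and 2) and osbzip76-2 (1 library, replicate 2), which carry independent mutant alleles of OsbZIP76. They were set against 3 WT libraries. OsbZIP76, a transcription factor of the bZIP family, is linked to when the endosperm becomes cellular, and in the hot summer of sampling that step came early in mutants and WT alike, according to the series description. The labels name 7 libraries, of which the one called replicate 1 of osbzip76-2 had no matching column of values and was not used here. The labels name the tissue as caryopsis, whereas the extraction protocol speaks of endosperm. Neither the lesion of each allele nor the number of plants behind a library is stated in the sources used. The replicates are called biological in the series description.

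Between 16897507 and 18091269 reads lay in genes in the osbzip76-1 libraries, 19998079 in the osbzip76-2 library and 18642086 to 21107236 in the WT libraries. WT replicate 2 stood apart, at -61.3 on principal component 1 of all tested genes, where the other 5 libraries lay between -2.97 and 30.5. Results are therefore given with and without it. Of 9 listed endosperm markers 3 were found by symbol (AGPL2, AGPS2 and RISBZ1). Their summed level was 258 to 282 RPKM in the 3 mutant libraries and 70.1 to 138 RPKM in the 3 WT libraries, with the lowest value in WT replicate 2. AGPL2 made up most of that sum in every library, and AGPS2 is a subunit of the same enzyme. RISBZ1 was at 4.68 to 5.15 RPKM in mutants and 2.21 to 2.74 RPKM in WT, where replicate 2 was the highest. The embryo marker OSH1 was at 4.11 to 7.56 RPKM in mutants and 3.01 to 6.08 RPKM in WT. No listed marker of nucellus or pericarp was found by symbol. Whole caryopses mix these tissues, so fewer cells of a type and less RNA per cell cannot be told apart.

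Transcript levels were in RPKM, read counts scaled by gene model length and by library size, a unit that allows levels of different genes to be compared. All 7 members had a mean of at least 1 RPKM over the 6 libraries and were tested, but Cht7 reached that mean only through its mutant libraries. Cht1 was the most abundant member. Its mean was 27.9 ± 14.4 RPKM in mutants and 19.7 ± 12.4 RPKM in WT libraries (SD, n = 3 each), and it made up 48.1% to 52.2% of the summed level of the 7 genes in mutant libraries and 58.0% to 67.6% in WT libraries. Cht3 followed, at 6.69 ± 3.38 RPKM in mutants and 4.37 ± 1.72 RPKM in WT. In WT every library of Cht1 lay above every library of Cht3, and every library of Cht7 lay below those of the other 6 members. Between Cht3 and Cht7 the WT order by mean was Cht8, Cht12, Cht9 and Cht11, and these 4 genes overlapped one another, as did Cht3 and Cht8. In the mutants the order from Cht3 down was Cht9, Cht8, Cht11, Cht12 and Cht7, and each of these neighbours overlapped the next.

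Cht7, a class I chitinase by its RefSeq name, was the member whose mutant libraries were most clearly apart from WT. It was at 2.97 and 2.25 RPKM in osbzip76-1 replicates 1 and 2 and at 3.41 RPKM in osbzip76-2, against 0.350, 0 and 0.339 RPKM in WT replicates 1 to 3. The mutant libraries were all high and close to each other, the WT libraries were all near 0, and the groups did not overlap. These levels rested on 77, 62 and 105 reads in the mutants against 11, 0 and 11 reads in WT. The 0 of WT replicate 2 allows up to 3 reads, or 0.102 RPKM. The depth-corrected ratio of all mutant reads to all WT reads was 12.3, with an exact 95% interval of 7.92 to 19.9 that covers counting error only. The ratio of mean levels was 12.5 with all libraries and 8.35 without WT replicate 2. The osbzip76-1 mean was 11.4 times the WT mean and the osbzip76-2 level 14.8 times. Within osbzip76-1, replicate 2 had 0.759 times the depth-corrected Cht7 reads of replicate 1 (exact 95% interval 0.534 to 1.08). The endosperm marker sum given above was likewise higher in all mutant libraries than in all WT libraries, and its part in the Cht7 difference was not tested.

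**Figure D1:**
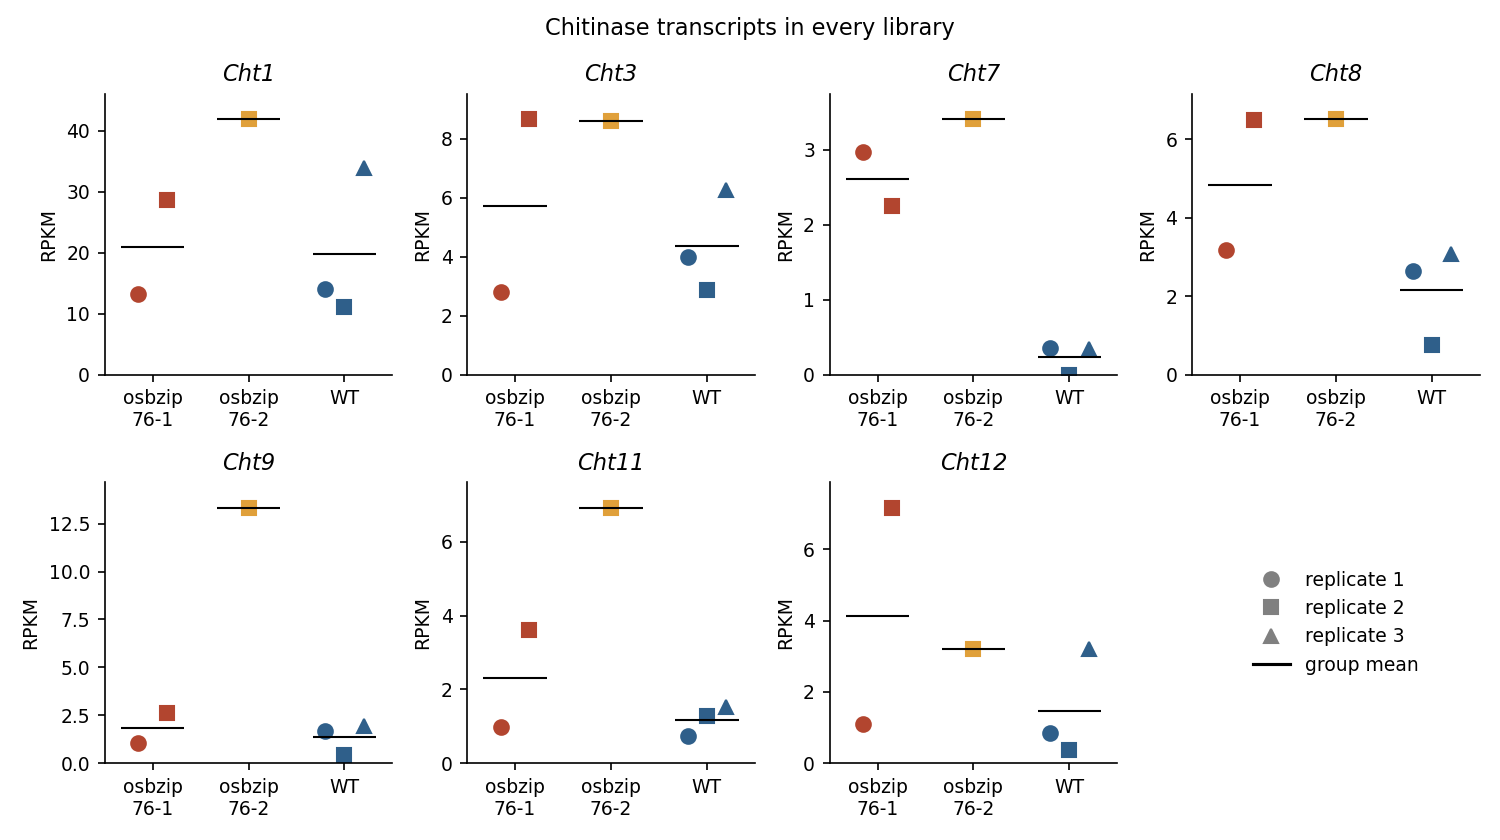
Level of each chitinase gene in RPKM (vertical axis, from 0, scaled per gene) in the osbzip76-1, osbzip76-2 and WT libraries; marker shapes give the replicate number and black lines the group mean. Cht7 is at 2.25 to 3.41 RPKM in the mutants and at 0 to 0.350 RPKM in WT, while Cht1, Cht3, Cht9, Cht11 and Cht12 overlap between mutants and WT.

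Cht8, a class II chitinase by its RefSeq name, was the other member without overlap, by a narrow margin, while 9.34% of all tested genes had every mutant library above every WT library. It was at 3.19 and 6.50 RPKM in osbzip76-1 and at 6.51 RPKM in osbzip76-2, against 2.63, 0.746 and 3.07 RPKM in WT. The lowest mutant library, osbzip76-1 replicate 1, and the highest WT library, WT replicate 3, had a read ratio of 1.04 with an exact 95% interval of 0.741 to 1.45, so that their order was not resolved at this depth. The mutants averaged 5.40 ± 1.91 RPKM and WT 2.15 ± 1.24 RPKM (SD, n = 3 each), a ratio of 2.51, or 1.89 without WT replicate 2.

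The neighbouring class I genes Cht1 and Cht3 had the lowest ratios of mutant mean to WT mean among the members, and differed a good deal between libraries of one genotype. Cht1 was at 13.2 and 28.7 RPKM in osbzip76-1 and at 41.9 RPKM in osbzip76-2, against 14.1, 11.2 and 33.9 RPKM in WT. Both osbzip76-1 replicates lay within the WT range, and WT replicate 3 stood above both. Cht3 was at 2.79 and 8.67 RPKM in osbzip76-1 and at 8.61 RPKM in osbzip76-2, against 3.98, 2.89 and 6.26 RPKM in WT. Here osbzip76-1 replicate 1 was the lowest of all 6 libraries and osbzip76-1 replicate 2 the highest. The ratios of the mutant mean to the WT mean were 1.41 for Cht1 and 1.53 for Cht3, and 1.16 and 1.31 without WT replicate 2. By allele, the osbzip76-1 mean was 1.06 (Cht1) and 1.31 (Cht3) times the WT mean. The osbzip76-2 level was 2.12 and 1.97 times the WT mean.

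Cht9, the chromosomal neighbour of Cht7, did not share its pattern. It was at 1.05 and 2.64 RPKM in osbzip76-1 and at 13.3 RPKM in osbzip76-2, against 1.69, 0.442 and 1.92 RPKM in WT. One library, that of osbzip76-2, held 317 of the 394 mutant reads, and osbzip76-1 replicate 1 lay below WT replicates 1 and 3. The osbzip76-2 level was 9.87 times the WT mean, whereas the osbzip76-1 mean was 1.37 times the WT mean (1.85 ± 1.12 RPKM, n = 2, against 1.35 ± 0.80 RPKM, n = 3).

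Cht11 was also highest in the osbzip76-2 library. It was at 0.972 and 3.62 RPKM in osbzip76-1 and at 6.93 RPKM in osbzip76-2, against 0.726, 1.27 and 1.52 RPKM in WT. Replicate 1 of osbzip76-1 lay inside the WT range, and the other mutant libraries lay above it. Cht12, listed as RCH10, was at 1.11 and 7.18 RPKM in osbzip76-1 and at 3.20 RPKM in osbzip76-2, against 0.836, 0.383 and 3.20 RPKM in WT. Its osbzip76-2 library and WT replicate 3 were at the same level to within rounding. Replicate 2 of osbzip76-1 had 158 reads of Cht12 and replicate 1 had 23, so the widest gap of any member within the osbzip76-1 genotype was in this gene. The ratios of the mutant mean to the WT mean for Cht9, Cht11 and Cht12 were 4.20, 3.28 and 2.60 with all libraries. Without WT replicate 2 they were 3.14, 3.43 and 1.90.

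Set beside each other, the 7 genes differed between libraries within a genotype as well as between genotypes. The osbzip76-2 library was the highest of 6 in 5 members, against 13.5% of all tested genes, and osbzip76-1 replicate 2 in the other 2 (Cht3 and Cht12). WT replicate 2 was the lowest of 6 in 5 members, where 33.8% of all tested genes had their lowest value in that library. Within WT, replicate 3 was the highest in 6 members (all but Cht7), against 40.3% of all tested genes. Within osbzip76-1, replicate 2 was above replicate 1 in 6 members, again all but Cht7, against 53.7% of all tested genes. Replicate 1 of osbzip76-1 was below WT replicate 3 in 5 members, against 60.1% of all tested genes. The summed level of the 7 genes was 25.3 RPKM in that mutant library and 50.2 RPKM in that WT library. The sums in the other libraries were 59.5 RPKM in osbzip76-1 replicate 2, 83.9 RPKM in osbzip76-2, 24.3 RPKM in WT replicate 1 and 16.9 RPKM in WT replicate 2.

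**Figure D2:**
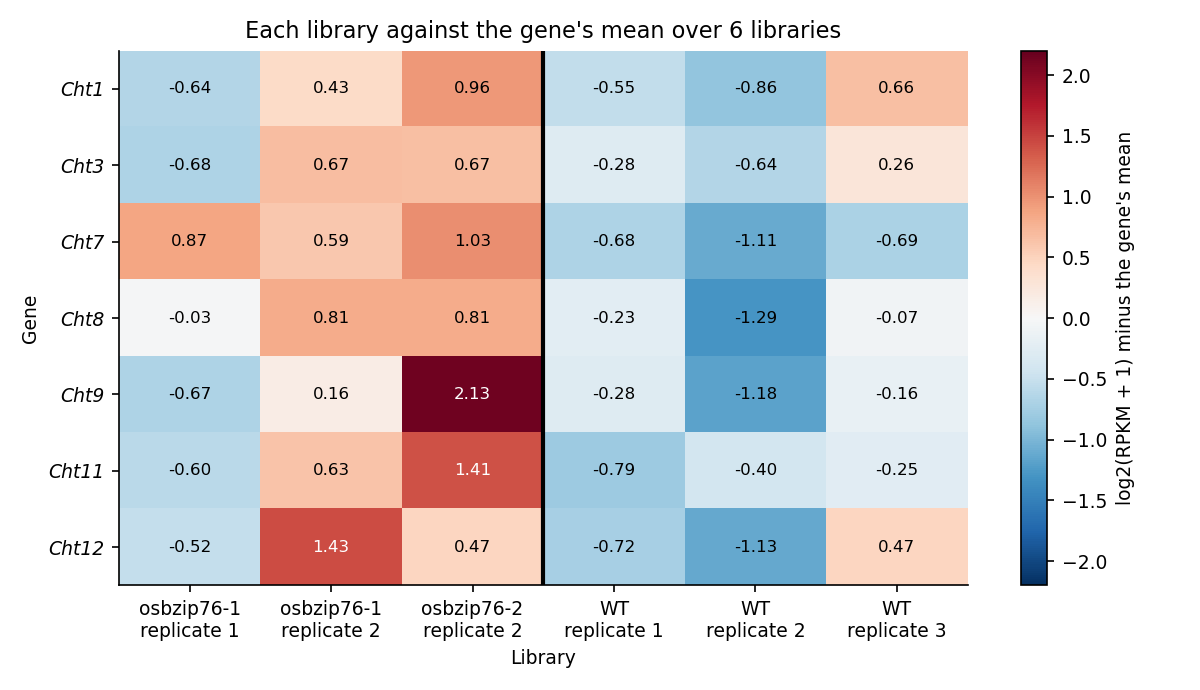
Value of log2(RPKM + 1) in each library (columns, mutants left of the black line, WT right) minus the mean of that gene over the 6 libraries (rows); red is above and blue below the mean. Replicate 1 of osbzip76-1 is below the mean in every gene except Cht7, where it is 0.87 above, and WT replicate 2 is below the mean in all 7 genes.

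On the log2(RPKM + 1) scale, which understates changes of low genes, all 7 members had a higher mean in the mutants than in WT. The differences ran from 0.44 for Cht3 (limma SE 0.39) to 1.66 for Cht7 (SE 0.21). Their median was 0.96, beside a median of -0.017 over the 21454 genes tested, of which 47.3% stood higher in the mutants. Without WT replicate 2 the median of the 7 was 0.68, without osbzip76-2 replicate 2 it was 0.49, and without osbzip76-1 replicate 1 it was 1.41. Of the 7, Cht7 was past the limma threshold (adjusted p under 0.05 over all genes), as were 0.387% of all tested genes. This contrast was in view when the members were chosen and Cht7 entered the fit only through its mutant libraries, so nothing is read from that count of 1. The count was 0 with a pseudocount of 0.1, with voom (a fit on recovered reads), with a replicate block and on leaving out any single library other than WT replicate 2. The largest difference among the other 6 members was 1.08 for Cht9 (SE 0.66), followed by 1.06 for Cht8 (SE 0.37). With single libraries left out, the Cht7 difference lay between 1.52 (WT replicate 2 omitted) and 1.78 (osbzip76-1 replicate 2 omitted).

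At least one measure of the spread within a genotype exceeded the genotype difference in every member but Cht7 and Cht9. These measures leave out the osbzip76-2 library, which enters the genotype difference. Without that library the Cht9 difference was 0.28, below its osbzip76-1 gap (0.83) and its WT range (1.02), while the Cht7 difference was 1.56. Without WT replicate 2 the Cht9 difference was 0.76, below the same gap, while the Cht7 difference was 1.52. In 4 of the 7 (Cht1, Cht3, Cht11 and Cht12) the gap between the osbzip76-1 libraries was larger than the difference between mutants and WT, and this was so for 45.8% of all tested genes. The range of the WT libraries exceeded the genotype difference in 4 members (Cht1, Cht3, Cht8 and Cht12), and in 78.9% of all tested genes. All WT ranges here include WT replicate 2, the lowest WT library in 6 members and in 48% of all tested genes. Without it the Cht8 difference was 0.68, below its osbzip76-1 gap (0.84). That difference exceeded the spread of the remaining WT libraries, at -0.23 and -0.07 relative to the gene's mean. Both measures were larger in the members than in the median gene. The gap between the osbzip76-1 libraries had a median of 1.07 over the 7 members and 0.15 over all tested genes, and the WT range had medians of 1.02 and 0.39. Cht7 had the narrowest gap of the 7 within osbzip76-1, at 0.29. Its WT range was 0.43 on this scale, where the added 1 compresses any spread near 0, and its WT libraries held 11, 0 and 11 reads.

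**Figure D3:**
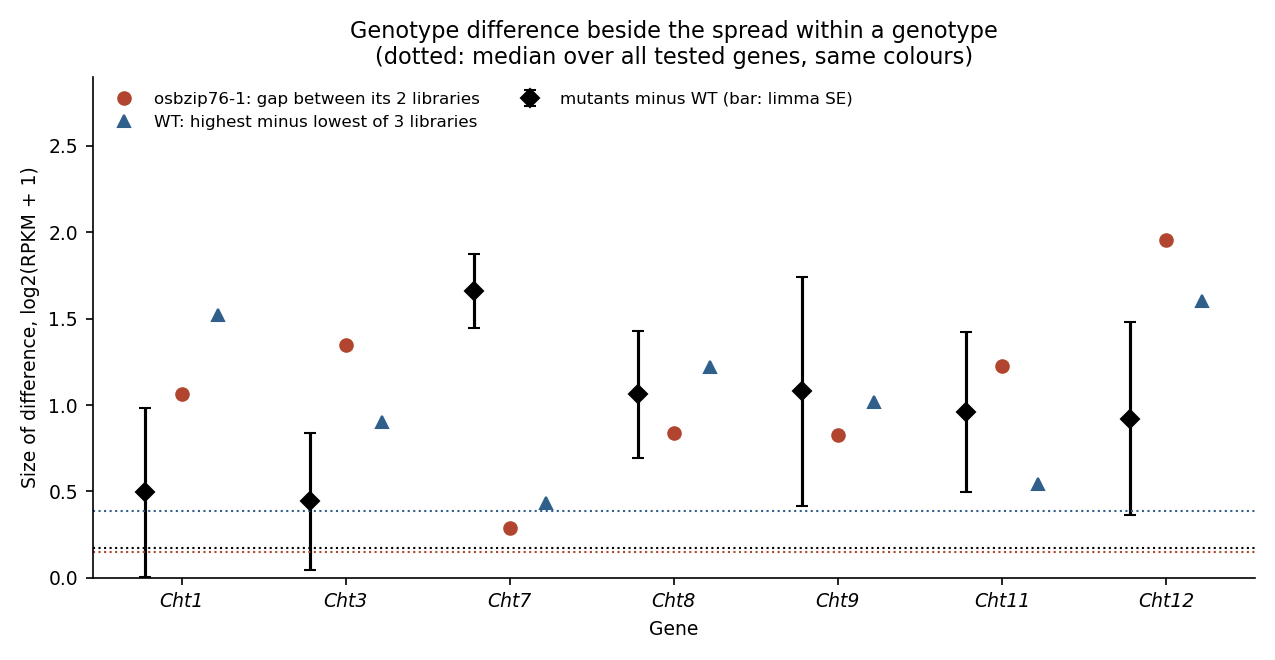
For each gene, the difference of mutants minus WT (black diamonds, bars are the limma SE), the gap between the osbzip76-1 libraries (red circles) and the range of the WT libraries (blue triangles), all as sizes on the log2(RPKM + 1) scale; dotted lines are the medians over 21454 tested genes. The genotype difference is above both other marks in Cht7 (1.66) and Cht9 (1.08) and below at least one of them in the other members. For Cht9 it is 0.28 without the osbzip76-2 library, below both marks, and 0.76 without WT replicate 2, below the red circle.

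All mutant libraries thus lay above all WT libraries in 2 of the 7 members, Cht7 and Cht8, and nothing is read from that count either. The same 2 were found without WT replicate 2, where 13.6% of all tested genes showed the pattern. Replicate 1 of osbzip76-1 decided this count. Without it 6 members, all but Cht1, had the remaining mutant libraries above every WT library, a pattern that 13.3% of all tested genes showed. Without WT replicate 3 the count was 3, with Cht12 added, against 15.6% of all tested genes.

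The direct comparison of the alleles asked whether the osbzip76-2 library differed from the osbzip76-1 libraries. With 1 osbzip76-2 library, an allele difference cannot be told apart from a deviation of that library, which was assumed to vary like the others. None of the 7 members passed limma's threshold, which 0.214% of all tested genes did. At an unadjusted p under 0.05 there were 2 members, Cht9 and Cht11, and 1055 of the 21454 tested genes. Voom on recovered reads called 0 of the 7, where it called 0.0653% of all tested genes. Cht9 was higher in osbzip76-2 by 2.39 on the log2 scale (SE 0.51, limma adjusted p = 0.301). Its adjusted p ran from 0.0217 to 1 over the alternatives, and the lowest of these, the only one past the threshold, was reached without WT replicate 2, which enters this fit only through the estimate of the spread. Cht11 was higher by 1.39 (SE 0.51, limma adjusted p = 0.887). Cht7 differed by 0.29 (SE 0.31, limma adjusted p = 0.998), so that a difference of either sign between the alleles is compatible with its error.

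Several gaps among the mutant libraries were wider than their counting error. The osbzip76-2 library had 7.14 times the depth-corrected Cht9 reads of the osbzip76-1 libraries together (exact 95% interval 5.55 to 9.28, counting error only). For Cht11 the ratio was 2.97 (interval 2.32 to 3.82), and for Cht1 it was 1.98 (interval 1.83 to 2.16). Between the replicates of osbzip76-1 the ratio of replicate 2 to replicate 1 was 6.48 for Cht12 (interval 4.17 to 10.5) and 3.10 for Cht3 (interval 2.34 to 4.16). The ratio between replicates was farther from 1 than the ratio between alleles in Cht1, Cht3, Cht8, Cht11 and Cht12. In Cht7 the ratios were 0.759 between replicates and 1.31 between alleles, about equally far from 1 on the log axis, and Cht7 was the 1 member for which the interval between osbzip76-1 replicates held equality.

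**Figure D4:**
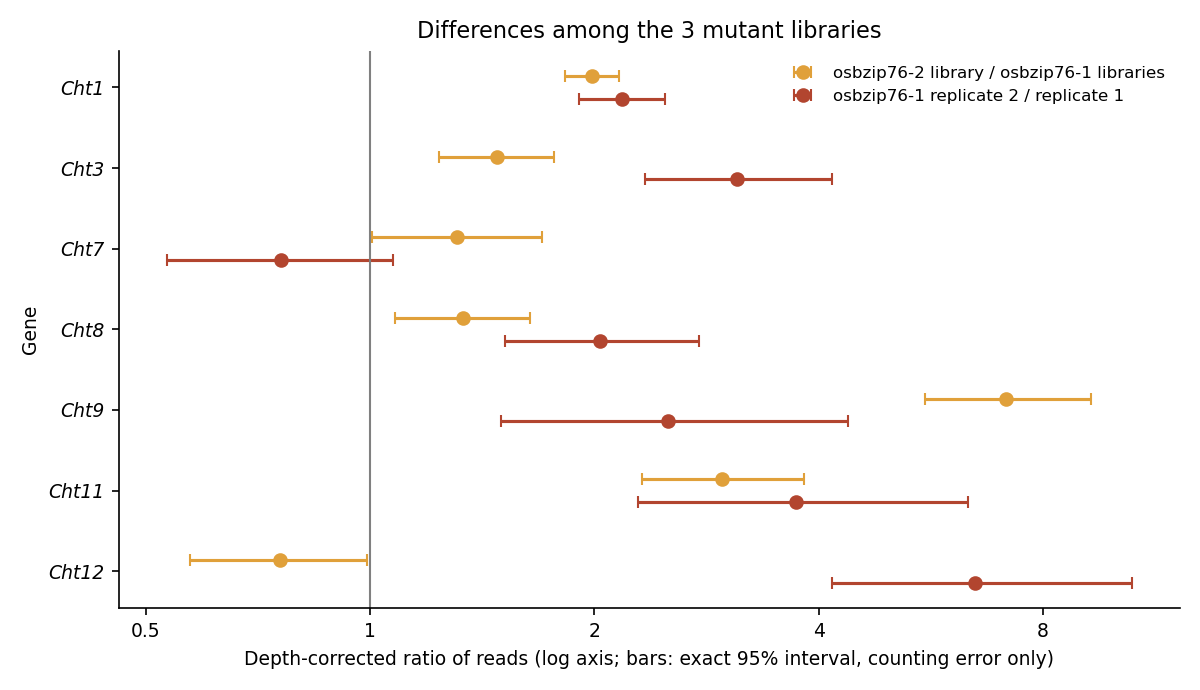
Depth-corrected ratios of reads among mutant libraries for each gene on a log axis, with exact 95% binomial intervals that cover counting error only: the osbzip76-2 library over both osbzip76-1 libraries (yellow) and osbzip76-1 replicate 2 over replicate 1 (red). The widest departures from 1 are Cht9 between alleles (7.14) and Cht12 between replicates of osbzip76-1 (6.48).

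The rows nearest in pattern to each member were sought among 153 tested rows that carry a name other than an identifier. The measure was the root mean square difference of log2(RPKM + 1) over the 6 libraries, after each gene's own mean was taken off. The added 1 shrinks fold changes of low genes, so genes near in this measure can differ in fold change. Cht1 and Cht3 were each other's nearest row, at 0.27, and Cht6, a chitinase gene that is not a member, was the second nearest to each, at 0.41 and 0.30. Cht9 was nearest to Cht11 (0.52) and then Cht1 (0.62), and Cht12 to Cht3 (0.43) and then Cht8 (0.47). The nearest rows to Cht7 were not chitinase genes. They were AGPL2, a large subunit of the ADP-glucose pyrophosphorylase of starch synthesis (0.26), and DMAS1, an enzyme of mugineic acid synthesis (0.31). AGPL2 was at 193, 167 and 193 RPKM in the mutants, against 87.4, 37.9 and 81.6 RPKM in WT. Its means were 184 and 69.0 RPKM, where those of Cht7 were 2.88 and 0.230 RPKM, a larger fold change that the scale compresses. Cht8 was nearest to AGPS2, the small subunit of the same enzyme (0.33), and to the cellulose synthase-like gene CSLD1 (0.36). Cht11 was nearest to the monosaccharide transporter gene MST6 (0.35), which had 4.70, 6.28 and 12.0 RPKM in the mutants against 3.80, 4.74 and 3.91 RPKM in WT, and to the calcium pump gene ACA7 (0.42).

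Chitinase rows outside the members differed among themselves. Cht6 averaged 30.0 ± 10.6 RPKM over the mutants and 30.2 ± 9.5 RPKM over WT libraries (SD, n = 3 each), above the means of Cht1 in both, with libraries that overlapped those of Cht1. It had 17.7 and 35.8 RPKM in osbzip76-1 and, in osbzip76-2, 36.4 RPKM, against 24.0, 25.4 and 41.1 RPKM in WT. Its mutant and WT libraries overlapped throughout (limma log2 fold change -0.036, SE 0.31), but osbzip76-1 replicate 1 was its lowest library and WT replicate 3 its highest. Cht5, named OsChia4a in RefSeq, was at 0.372 to 1.02 RPKM in mutants and 0.118 to 0.696 RPKM in WT, and Cht10 at 0.0898 to 0.441 RPKM in mutants and 0 to 0.168 RPKM in WT, both below the expression limit for testing. A row named Chib3H-h, chosen after its values were seen, was also below that limit and was not among the rows searched for likeness. It was at 0.874 and 0.206 RPKM in osbzip76-1 and, in osbzip76-2, at 1.62 RPKM, against 0.108, 0 and 0.175 RPKM in WT. Its mutant libraries thus lay above its WT libraries. Replicate 2 of osbzip76-1 and WT replicate 3 held 5 reads each, however, so their order rested on library size alone. The osbzip76-2 library held 44 of the 69 mutant reads. Against 8 WT reads, the 69 gave a depth-corrected ratio of 9.54 (exact 95% interval 4.58 to 22.96, counting error only).

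Few other genes of chitin perception and defence carry a symbol in the table. Of 27 listed chitinase and glucanase genes 3 were found, and 1 was tested. Of 11 listed genes of chitin perception 2 were found and tested, and of 43 listed defence genes 1. None of these 4 tested genes passed limma's threshold between mutants and WT, and 1 of them, RAC1, had an unadjusted p under 0.05, as had 2945 of the 21454 tested genes. Voom on recovered reads called 0 of them and 0.289% of all tested genes. LYP6, a lysin motif receptor that binds chitin, averaged 63.3 ± 9.4 RPKM in mutants and 52.8 ± 5.7 RPKM in WT libraries (SD, n = 3 each), with a log2 fold change of 0.25 and a limma SE of 0.14. RAC1, a small GTPase of immune signalling, averaged 15.9 ± 2.3 RPKM in mutants and 24.5 ± 7.7 RPKM in WT, where WT replicate 2 alone had 33.4 RPKM (log2 fold change -0.56, SE 0.21). WRKY71, a transcription factor of defence signalling, was at 1.61 and 5.57 RPKM in osbzip76-1 and, in osbzip76-2, at 9.28 RPKM, against 2.09, 5.89 and 1.67 RPKM in WT. As in most of the chitinase members, its osbzip76-1 replicate 2 and osbzip76-2 levels stood above those of osbzip76-1 replicate 1, but its WT replicate 2 was the highest of the WT libraries.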

How the data were processed

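The authors deposited RPKM values (reads scaled by gene length and library total) in a single table of library columns and 2 columns of genotype means, per the file headers. Per the submitters' processing notes, the build was IRGSP-1.0. No source used here names the aligner, counter, strand setting or annotation release, so similar or overlapping genes, the neighbouring chitinases included, may share reads. Columns were matched to 6 of the 7 listed libraries by name. No pair of replicates agreed within sampling noise (chi-square per degree of freedom 8.96 to 41.9).

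Whole reads were recovered from the steps in the RPKM values: library totals and 1 length per gene were sought that make every value a whole number of reads, and 100.00% of 168975 values above 0 came out whole within 0.02 reads. A gene with few reads fits some length by construction, so this share is informative for the better covered genes. Exact 95% binomial intervals on these reads, taken relative to the recovered library totals, cover counting error only.

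Genes with a mean of at least 1 RPKM over the libraries (21454) entered limma 3.58.1, run in R 4.3.3 (two-sided, mean-variance trend) on log2(RPKM + 1), with Benjamini-Hochberg adjustment over all of them. Mutants against WT used 2 groups and osbzip76-2 against osbzip76-1 used 3 groups with a shared spread. The recovery and the test were tried on simulated data. Alternatives were a pseudocount of 0.1, no filter, median-of-ratios scaling, voom with TMM (a trimmed mean scaling) on recovered reads, a replicate block and each library left out. Members and gene lists were chosen with earlier results of these data known. All members are named, with the 2 named rows nearest in pattern to each; list genes were found by symbol, and RSS3, to which the RefSeq table (assembly ASM3414082v1) gives the alias SUS3, was not used. No sequences are shown. The neighbouring genes named were read from the gene order in that assembly, which differs from the build of the table, and no coordinates are given.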

Additional observations from a re-analysis of the deposited data

How the results depend on the processing

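The 77 alternative values of the members between mutants and WT all kept their direction, and 8 of them, all for Cht7, lost the call. Members called were 0 with a pseudocount of 0.1, 0 with voom, 0 with the replicate block, and 0 to 1 over the libraries left out, against 1 in the reported analysis. Genes called in all, 83 in the reported analysis, were 67 with a pseudocount of 0.1, 52 with no filter, 114 with median-of-ratios scaling and 62 with voom. Over the libraries left out they were 34 to 108. With the replicate number as a block they were 32. Same-numbered libraries of osbzip76-1 and WT deviated from their group means with correlations of -0.011 and -0.097. The deviations of the 2 osbzip76-1 libraries mirror each other by construction. These correlations therefore cannot decide whether same-numbered libraries share more than a number. Cht7 had a log2 fold change of 3.44 with a pseudocount of 0.1 and 4.41 with voom, against 1.66. The cause of these shifts was not tested, apart from the smaller pseudocount, which by construction enlarges folds of low genes.

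Between the alleles 46 genes were called, against 2 with a pseudocount of 0.1, 179 with no filter, 14 with voom, 32 with the replicate block and 0 to 264 over the libraries left out, and members called were 0 to 1 over the libraries left out (Cht9, without WT replicate 2). Of 70 member values 3 changed sign. Cht12, at 0.018, was -0.37 with the replicate block and ran from -0.96 to 1.00 over the libraries left out, and Cht3 ran from -0.0094 to 1.34. The count of members without overlap, 2, was 2 to 6 over the libraries left out, where 11.6% to 16.4% of all tested genes showed the pattern, an alternative chosen after seeing the data, as was rescaling, which gave 2. Cht7 in WT rests on 0 to 11 reads a library, so that depth limits how closely its fold is known, and the interval given with it covers counting error only.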
